A study of Mus musculus with 9 samples.

Results

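De novo lipogenesis, the making of fatty acids from sugar-derived acetyl-CoA, was described in mouse liver through 10 genes, 3 regulators (Srebf1, Mlxipl and Thrsp) and 7 enzymes (Acly, Me1, Acaca, Acacb, Fasn, Elovl6 and Scd1). The genes were taken by symbol, and all 10 were found among the 55335 genes of the deposited table. All 10 also passed the filter on low values, a mean of at least 1 FPKM (fragments scaled to gene length and library size) over the 9 mice, which left 6755 genes for testing. Every mouse was fed chow, fasted for 4 h and sampled at 20 weeks of age, and the study's results describe the sequenced livers under male offspring. The study states B6D2F1/J parents for the embryos made in vitro, and does not state outright those of the natural pregnancies. All mice are taken here as B6D2F2, the offspring of such parents. The NC-chow group (mice 1, 5 and 6) was conceived and carried naturally. The IVF-chow group (mice 2, 3 and 4) came from oocytes of superovulated females that were fertilized in vitro, and the fresh 2-cell embryos were transferred to pseudopregnant ICR females. The FET-chow group (mice 2, 3 and 4) came from embryos made in the same way, slowly frozen in propanediol, stored for 7 days, thawed and transferred to ICR females. The dam's strain, superovulation, culture and transfer therefore cannot be told apart from in vitro fertilization in a comparison with NC-chow, and B6D2F2 mice are genetically mixed, so littermates differ too. The comparisons address whether the way of conception and freezing went with the level of lipogenic mRNA in the adult liver.

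In the pathway, ATP citrate lyase (Acly) releases acetyl-CoA from citrate in the cytosol, acetyl-CoA carboxylase turns it into malonyl-CoA, and fatty acid synthase (Fasn) builds palmitate from these units with NADPH, part of which malic enzyme (Me1) supplies. Elovl6 lengthens palmitate to stearate, and Scd1 desaturates stearate to oleate. Insulin raises transcription of these genes in the liver mainly through SREBP-1c, a product of Srebf1, and glucose through ChREBP, the product of Mlxipl, so that fed liver holds more of these mRNAs than fasted liver.

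The libraries differed in ways that bear on every value below. The estimated depth was 6610000 to 13310000 fragments in NC-chow, 3900000 to 8410000 in IVF-chow and 2020000 to 2940000 in FET-chow mice. Nuclear protein-coding genes held between 4.36% and 29.3% of the summed FPKM. Mitochondrial genes held 27.6% to 55.3%, 3 non-coding RNA entries 3.49% to 61.9%, and other genes the remainder. Values are therefore given as deposited and, where it mattered, after each library was rescaled to the same sum over nuclear protein-coding genes. Each description label ends in a number after the letter S. It was 67 for NC-chow mouse 1, ran from 71 to 76 in the IVF-chow and FET-chow mice and was far higher for NC-chow mice 5 and 6. In bulk tissue, fewer cells of a type and less RNA per cell cannot be told apart.

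The sequences upstream of 3 of the genes are shown because the levels of these genes were correlated from mouse to mouse, and because binding of NF-Y to the CCAAT box is a known companion of SREBP at lipogenic promoters. Each line gives the 250 bases before the transcription start that RefSeq lists (GRCm38.p6), 5′ to 3′ on the gene's strand, which is the minus strand for all 3, and capitals mark CCAAT on either strand (ATTGG where it lies on the opposite strand). Fasn lies at chr11:120824548-120824797, Srebf1 at chr11:60210472-60210721 (the most downstream of its 3 listed starts) and Thrsp at chr7:97417551-97417800.
Fasn: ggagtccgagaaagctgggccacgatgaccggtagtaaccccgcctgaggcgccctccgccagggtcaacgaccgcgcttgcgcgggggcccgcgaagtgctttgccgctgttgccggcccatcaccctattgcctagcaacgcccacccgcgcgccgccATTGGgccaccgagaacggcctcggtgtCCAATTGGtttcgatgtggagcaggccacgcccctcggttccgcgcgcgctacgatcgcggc
Srebf1: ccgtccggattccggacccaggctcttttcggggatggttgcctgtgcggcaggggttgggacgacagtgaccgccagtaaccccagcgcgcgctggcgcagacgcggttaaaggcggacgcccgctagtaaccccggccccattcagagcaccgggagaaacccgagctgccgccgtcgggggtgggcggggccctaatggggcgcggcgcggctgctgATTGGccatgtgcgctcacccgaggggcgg
Thrsp: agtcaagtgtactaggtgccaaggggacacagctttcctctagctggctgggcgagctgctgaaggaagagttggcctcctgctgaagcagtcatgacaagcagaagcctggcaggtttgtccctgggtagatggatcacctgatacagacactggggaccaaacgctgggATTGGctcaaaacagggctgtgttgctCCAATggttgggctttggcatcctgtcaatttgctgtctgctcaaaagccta

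In the Fasn window CCAAT began 90, 62 and 59 bases before the start, with the last pair overlapping on opposite strands. In the Srebf1 window it began 30 bases before the start, and in the Thrsp window 79 and 52 bases before it. RefSeq starts were matched for 9 of the 10 genes (13 windows), and Scd1 was not among them. CCAAT, searched on both strands, was present in 7 of the 13 windows (Acacb, Fasn, Me1, Mlxipl, Srebf1 and Thrsp), against 33.8% of all 32851 windows of this length. The GC box GGGCGG was found in 5 windows (Acly, Me1, Mlxipl and Srebf1), against 32.7% of all windows. The E-box CACGTG was found only upstream of Mlxipl, against 6.02% of all windows, and the sterol regulatory element written as TCACNCCAC likewise only upstream of Mlxipl, at another of its starts, against 1.05%. These are matches of letters, and the data hold no measure of binding.

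Srebf1 (ENSMUSG00000020538, chr11:60199089-60222581, minus strand, GRCm38) encodes the transcription factor SREBP-1, which drives the enzymes of fatty acid synthesis. Its level was 3.16, 33.2 and 22.5 FPKM in NC-chow mice 1, 5 and 6, then 2.29, 5.03 and 6.06 FPKM in the IVF-chow mice and 4.90, 2.98 and 1.75 FPKM in the FET-chow mice. NC-chow mice 5 and 6 stood above the other 7 livers, and NC-chow mouse 1 lay among the IVF-chow and FET-chow values.

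Mlxipl (ENSMUSG00000005373, chr5:135089890-135138382, plus strand) encodes ChREBP, the glucose-responsive factor. Its level was 44.9, 106.5 and 120.0 FPKM in the NC-chow mice, 13.2, 26.4 and 52.5 FPKM in the IVF-chow mice and 68.2, 40.3 and 15.1 FPKM in the FET-chow mice. The groups overlapped through NC-chow mouse 1, which was below IVF-chow mouse 4 and FET-chow mouse 2.

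Thrsp (ENSMUSG00000035686, chr7:97412938-97417730, minus strand), a small nuclear protein known as Spot 14 that responds to thyroid hormone and carbohydrate, reached 130.1, 341.9 and 374.1 FPKM in the NC-chow mice. In the IVF-chow mice its level was 31.7, 131.5 and 428.6 FPKM, so that this group held both a low liver and the highest value of all 9. The FET-chow mice had 200.9, 46.1 and 28.1 FPKM.

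The first enzyme, Acly (ENSMUSG00000020917, chr11:100476353-100528000, minus strand), stood at 1.86, 20.4 and 28.2 FPKM in the NC-chow mice. In the IVF-chow mice it was 2.05, 5.47 and 7.36 FPKM, and in the FET-chow mice 2.18, 3.01 and 2.67 FPKM. NC-chow mouse 1 was here the lowest of the 9 livers, while NC-chow mice 5 and 6 were the highest.

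Me1 (ENSMUSG00000032418, chr9:86581371-86695953, minus strand), which makes NADPH while turning malate into pyruvate, had 3.13, 13.3 and 13.02 FPKM in the NC-chow mice. The IVF-chow mice had 1.82, 3.73 and 5.57 FPKM, and the FET-chow mice 1.70, 3.92 and 3.73 FPKM. The split inside the NC-chow group was again wider than the whole range of the other 6 livers.

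Both acetyl-CoA carboxylases were low. Acaca (ENSMUSG00000020532, chr11:84129672-84401651, plus strand) encodes the cytosolic form that feeds fatty acid synthesis, and its level was 1.34, 5.44 and 4.04 FPKM in the NC-chow mice, 1.28, 0.870 and 1.24 FPKM in the IVF-chow mice and 0.540, 0.251 and 0.587 FPKM in the FET-chow mice. As deposited, the 3 groups did not overlap, in the order NC-chow, IVF-chow, FET-chow, a pattern found in 0.266% of all genes tested, although NC-chow mouse 1 (1.336 FPKM) lay only just above the highest IVF-chow mouse (1.276 FPKM). After rescaling, IVF-chow (0.618 to 3.74 FPKM) overlapped both NC-chow (1.64 to 4.52 FPKM) and FET-chow (0.223 to 1.49 FPKM). The FET-chow values rest on few reads, an estimated 10, 7 and 16 fragments if the longest annotated transcript is taken as the gene's length, against 84 to 619 in the NC-chow mice. Acaca passed the filter on low values only through NC-chow, the group where it was highest. Its mean was 3.61 FPKM in NC-chow, 1.13 FPKM in IVF-chow and 0.459 FPKM in FET-chow.

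The study lists a qPCR primer pair for Acaca. It reports that qPCR of selected mRNAs followed the trends of its sequencing. The pair is shown because it marks which part of this gene that assay reads, and no qPCR value was used here. Written 5′ to 3′ in lower case throughout, the primers are the following.
Acaca forward: cccagagatgtttcggcagtcac
Acaca reverse: gtcaggatgtcggaaggcaaagg

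Both matched 2 of the 9 annotated Acaca transcripts (GENCODE vM21), with a product of 96 bases. In the longer transcript, the forward primer spans the junction of coding exons 40 and 41 of 56 (chr11:84320663-84320681 and chr11:84322483-84322486), and the reverse primer lies in exon 41 (chr11:84322537-84322559). The FPKM values, by contrast, are for the whole gene.

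Acacb (ENSMUSG00000042010, chr5:114146535-114250761, plus strand) encodes the mitochondrial-surface carboxylase whose malonyl-CoA restrains fatty acid oxidation. Its level was 0.290, 8.65 and 7.04 FPKM in the NC-chow mice, 0.363, 1.162 and 3.45 FPKM in the IVF-chow mice and 2.47 and 2.02 FPKM in FET-chow mice 2 and 3, while it is listed at 0 in FET-chow mouse 4. NC-chow mouse 1 had the lowest value above 0 of all 9 livers.

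Fasn (ENSMUSG00000025153, chr11:120805846-120824547, minus strand), the synthase that makes palmitate, had 4.13, 48.0 and 47.7 FPKM in the NC-chow mice. In the IVF-chow mice it had 3.32, 3.90 and 10.6 FPKM, and in the FET-chow mice 17.6, 10.01 and 3.09 FPKM. NC-chow mice 5 and 6 differed by less than 1 FPKM from each other and were more than 11-fold above NC-chow mouse 1.

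Elovl6 (ENSMUSG00000041220, chr3:129532355-129638495, plus strand), the elongase, had 3.97, 69.1 and 41.1 FPKM in the NC-chow mice, 0.870, 3.87 and 29.7 FPKM in the IVF-chow mice and 7.93, 2.93 and 1.05 FPKM in the FET-chow mice. IVF-chow mouse 4 came close to NC-chow mouse 6, while IVF-chow mouse 2 was the lowest of all livers.

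Scd1 (ENSMUSG00000037071, chr19:44394455-44407879, minus strand), the stearoyl-CoA desaturase, had the highest mean of the 10 mRNAs in every group on the per-length FPKM scale. In FET-chow mouse 4, however, Thrsp was above Scd1 (28.1 against 23.5 FPKM). The level of Scd1 was 737.6, 919.2 and 885.2 FPKM in the NC-chow mice. In the IVF-chow mice it was 83.1, 877.0 and 792.1 FPKM, and in the FET-chow mice 438.8, 203.4 and 23.5 FPKM. NC-chow mouse 1 was nearer to the other NC-chow mice for this gene than for the other 9, and every FET-chow mouse was below every NC-chow mouse.

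**Figure D1:**
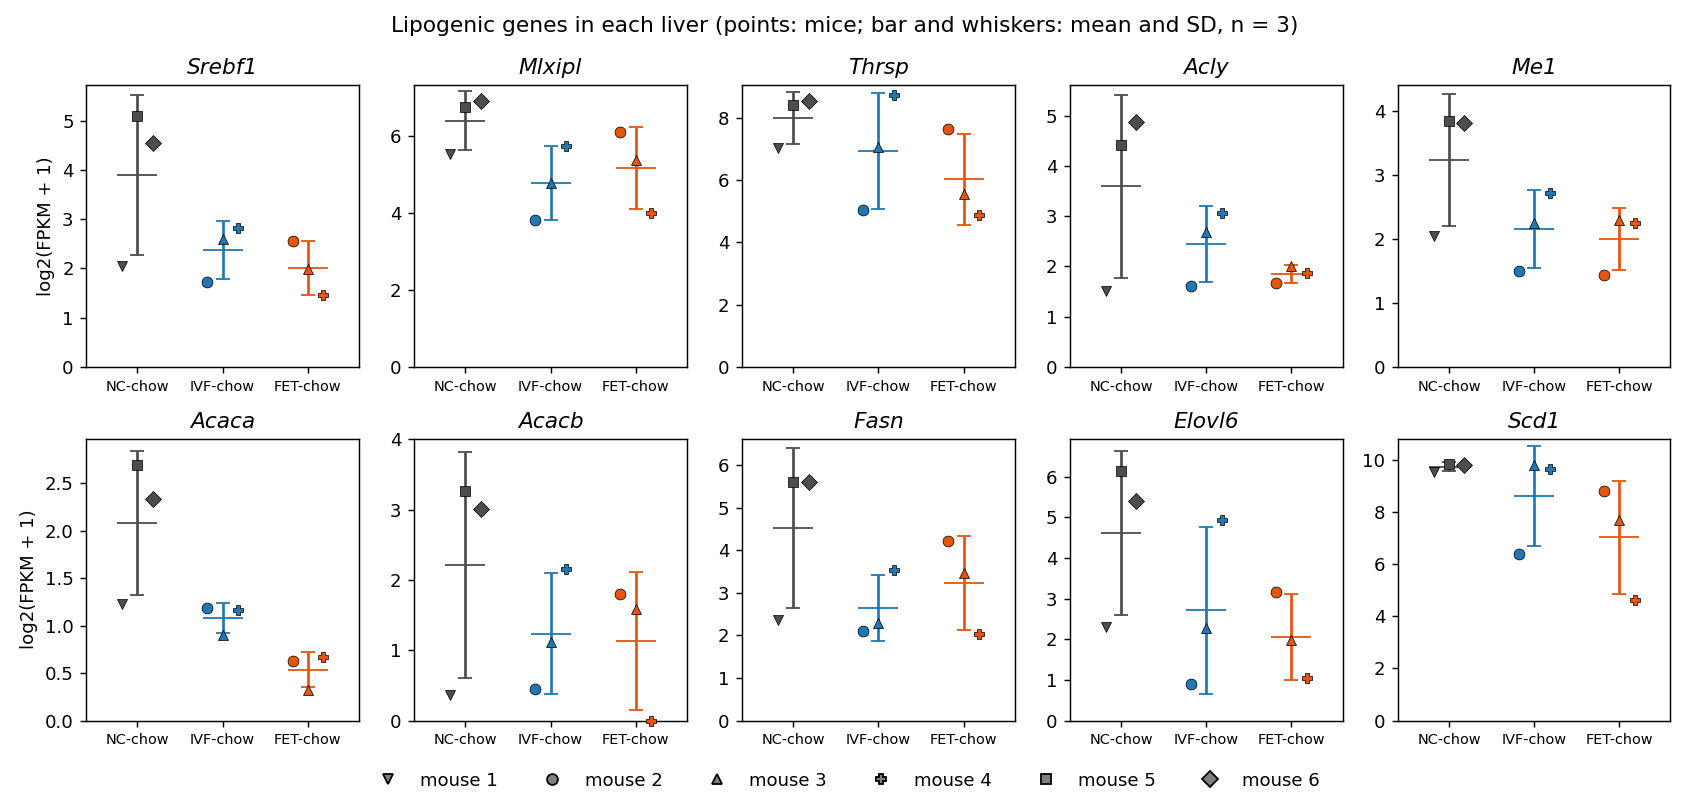
Level of each of the 10 genes on the log2(FPKM + 1) scale (y axis) by way of conception (x axis), with 1 point per mouse, symbols for the mouse number, and a bar and whiskers for the mean and SD of 3 mice. NC-chow mice 5 and 6 sit at the top of 9 of the 10 panels, all but that of Thrsp, and NC-chow mouse 1 falls among the IVF-chow and FET-chow mice except for Acaca and Acly.

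By group mean, Scd1, Thrsp and Mlxipl ranked from the top in this order in all 3 groups, and Acacb and Acaca ranked last. In NC-chow the means were 847.3 ± 96.5 FPKM for Scd1, 282.0 ± 132.6 FPKM for Thrsp and 90.5 ± 40.01 FPKM for Mlxipl (SD, n = 3), and the Scd1 values did not overlap those of Thrsp. In FET-chow they were 221.9 ± 208.3, 91.7 ± 95.0 and 41.2 ± 26.6 FPKM (SD, n = 3), and neighbours in this order overlapped. The genes between them (Elovl6, Fasn, Srebf1, Acly and Me1) changed places between groups, with means of 9.83 to 38.1 FPKM in NC-chow and 2.62 to 10.2 FPKM in FET-chow. Neighbours in this order overlapped in each group, whereas Fasn and Acly, which are not neighbours in FET-chow, did not overlap there.

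In FET-chow against NC-chow, all 10 genes had a lower fitted level, and none passed the test. The test was limma on log2(FPKM + 1) with Benjamini-Hochberg adjustment over all 6755 genes, in which 16 genes (0.237%) passed an adjusted p of 0.05 and 0 of the 10. At an unadjusted p under 0.05, 5 of the 10 were lower (Scd1, Elovl6, Srebf1, Acly and Acaca), against 10.1% of all genes. Differences are on the log2(FPKM + 1) scale, which understates the change of low genes such as Acaca and Acacb. Scd1 had a log2 fold change of -2.70 (SE 1.14, adjusted p = 0.334) and Elovl6 one of -2.56 (SE 0.94, adjusted p = 0.258). For Srebf1 it was -1.90 (SE 0.80, adjusted p = 0.334), for Acly -1.75 (SE 0.79, adjusted p = 0.369) and for Acaca -1.54 (SE 0.58, adjusted p = 0.274). Acaca, however, passed the filter on low values only through its NC-chow mice. The other 5 lay between -1.98 (Thrsp) and -1.09 (Acacb), with adjusted p of 0.491 to 0.678. In FPKM, the FET-chow mean was 0.127 times the NC-chow mean for Acaca and 0.104 times for Elovl6, the lowest of the 10 ratios, and 0.456 times for Mlxipl, the highest.

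The median difference over the 10 genes was -1.65, beside -0.46 over all genes tested, and 74.3% of all genes had a lower fitted level in FET-chow. After rescaling these medians were -1.18 and -0.06. When 1 mouse was left out, all 10 genes kept a lower fitted level, with values between -3.71 and -0.52, and Scd1 ranged from -3.58 without FET-chow mouse 2 to -1.49 without FET-chow mouse 4. Every FET-chow mouse was below every NC-chow mouse for 2 of the 10, Acaca and Scd1, both as deposited (17.1% of all genes) and after rescaling (11.5% of all genes). Read against these shares, 2 of 10 is not far from the background.

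In IVF-chow against NC-chow, the 10 genes were again all lower by the fitted value, with a median of -1.13 beside -0.25 over all genes, of which 68.8% were lower. None of the 10 passed the adjusted threshold in limma, against 4 genes (0.0592%) of all, and each had an adjusted p of 1. At an unadjusted p under 0.05, Elovl6 (-1.90, SE 0.94) and Fasn (-1.88, SE 0.91) were lower, against 2.86% of all genes. The smallest difference was that of Acacb, -0.98 (SE 0.68). After rescaling the medians were -0.83 and -0.07. Without IVF-chow mouse 2, Scd1 came to -0.017 and Thrsp to -0.10. The groups did not overlap for Acaca as deposited, against 5.46% of all genes, whereas after rescaling this held for Mlxipl alone, against 11.3%.

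Between FET-chow and IVF-chow, the groups that share in vitro fertilization and the ICR dam, the 10 genes showed no common direction. Of the 10, 8 were lower and Mlxipl (0.38, SE 1.04) and Fasn (0.59, SE 0.91) were higher in FET-chow, against 65.4% of all genes lower. The median was -0.46 beside -0.20 over all genes, and -0.24 beside 0.015 after rescaling. Without IVF-chow mouse 4 it turned to 0.053 with 5 of 10 lower, beside 0.16 over all genes, and Elovl6 turned from -0.65 to 0.46. Mlxipl turned to -0.095 without IVF-chow mouse 2 and to -0.094 without FET-chow mouse 2. The lowest value was that of Scd1, -1.58 (SE 1.14), which leaving out 1 mouse moved between -2.68 (without IVF-chow mouse 2) and -0.37 (without FET-chow mouse 4). Thrsp, at -0.92 (SE 1.14), moved between -1.87 and -0.013, the latter without IVF-chow mouse 4. In limma, 0 of the 10 passed the adjusted threshold, against 6 (0.0888%) of all genes, and 0 of the 10 were lower at an unadjusted p under 0.05, against 2.95%. As deposited, Acaca had its 3 FET-chow values below its 3 IVF-chow values, against 2.56% of all genes, and after rescaling this held for 0 of the 10, against 6.01%. The 2 comparisons with NC-chow share their control mice.

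**Figure D2:**
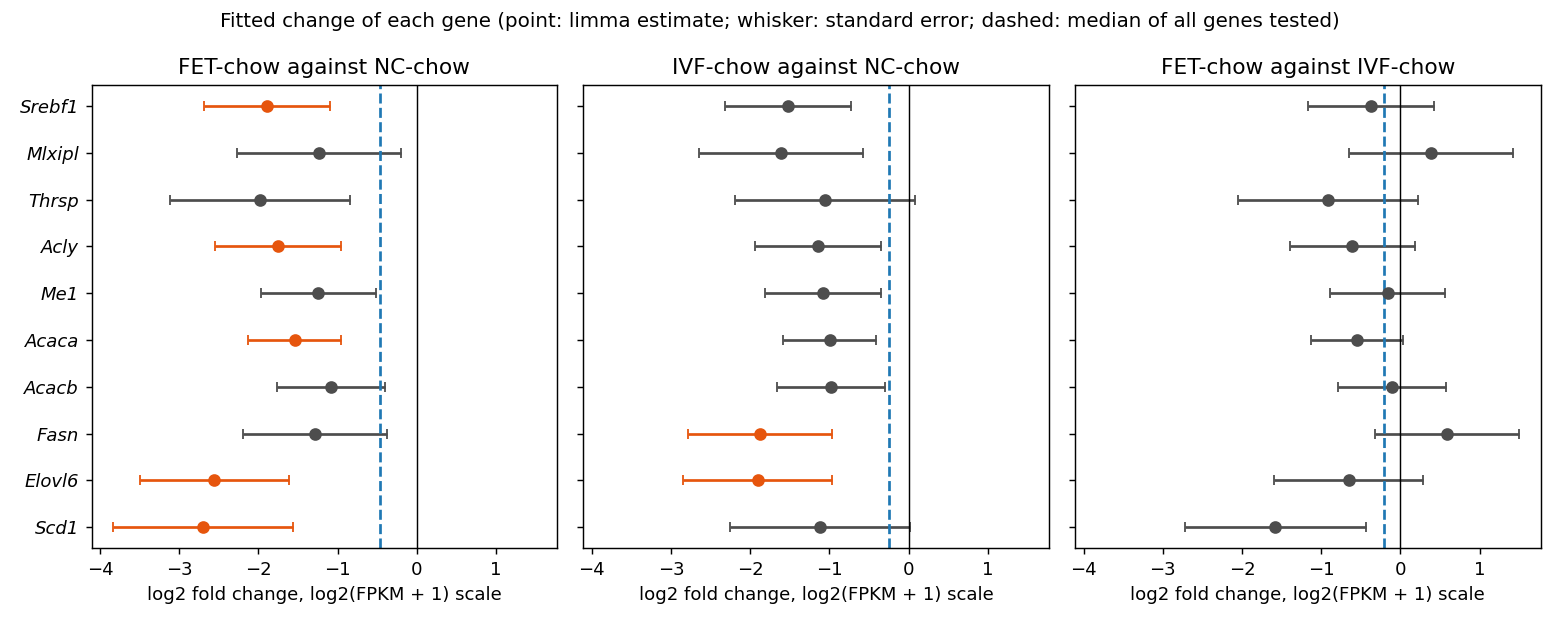
Log2 fold change of each gene in the 3 comparisons (x axis, log2(FPKM + 1) scale), with limma's standard error as whiskers, orange for an unadjusted p under 0.05 and a dashed line at the median of all 6755 genes tested. All 10 genes lie left of 0 in both comparisons with NC-chow, and Mlxipl and Fasn lie right of 0 in FET-chow against IVF-chow.

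Most of the lipogenic genes were split inside the NC-chow group. Mouse 5 exceeded mouse 1 by 10.5-fold for Srebf1, 11.6-fold for Fasn, 17.4-fold for Elovl6, 10.97-fold for Acly and 29.8-fold for Acacb, and mouse 6 did so by 7.13-fold, 11.55-fold, 10.35-fold, 15.2-fold and 24.3-fold in the same order of genes. The folds were smaller for Me1 (4.25 and 4.16), Acaca (4.08 and 3.03), Thrsp (2.63 and 2.88) and Mlxipl (2.37 and 2.67), and for Scd1 they were only 1.25 and 1.20. After rescaling they fell to 20.2 and 14.5 for Acacb, 7.45 and 9.09 for Acly, 1.78 and 1.72 for Thrsp and 1.61 and 1.60 for Mlxipl, and for Scd1 they turned to 0.846 and 0.719. On the log2(FPKM + 1) scale, the mean of mice 5 and 6 minus mouse 1 had a median of 2.27 over the 10 genes, beside 0.45 over all genes tested. For Elovl6, Fasn, Acly, Acacb and Srebf1 this difference was larger than in at least 99.0% of all genes tested, and for Scd1 than in 41.0%. After rescaling to nuclear protein-coding genes, the medians were 1.71 and 0.

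NC-chow mouse 1, whose label number is close to theirs, lay within the spread of the 6 mice of the other groups for 8 of the 10 genes as deposited (Acly was below and Acaca above that spread), beside 89.7% of all genes tested, and for 9 of the 10 after rescaling, beside 75.3%. The 8 of 10 and 9 of 10 are thus near the share over all genes. The same 6 mice were all below both NC-chow mice 5 and 6 for 9 of the 10 genes as deposited, with Thrsp as the exception, beside 17.3% of all genes tested, and for 8 after rescaling, with Acaca and Scd1 as the exceptions, beside 12.1%. With mouse 1 as the only NC-chow mouse, the median difference over the 10 genes was -0.16 for FET-chow and 0.195 for IVF-chow as deposited, and -0.030 and 0.094 after rescaling. Over all genes tested the same medians were -0.15 and 0.040 as deposited and -0.046 and -0.080 after rescaling, so for FET-chow the members were close to all genes. Under this setting Acly, Acacb and Fasn were higher, not lower, in both other groups, and the one NC-chow mouse is assumed to vary like the other groups. With NC-chow mice 5 and 6 alone, the median was -2.42 for FET-chow and -1.98 for IVF-chow, beside -0.62 and -0.41 over all genes tested. The label number and the mouse cannot be told apart, since only 1 NC-chow mouse had a number near those of the other groups.

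**Figure D3:**
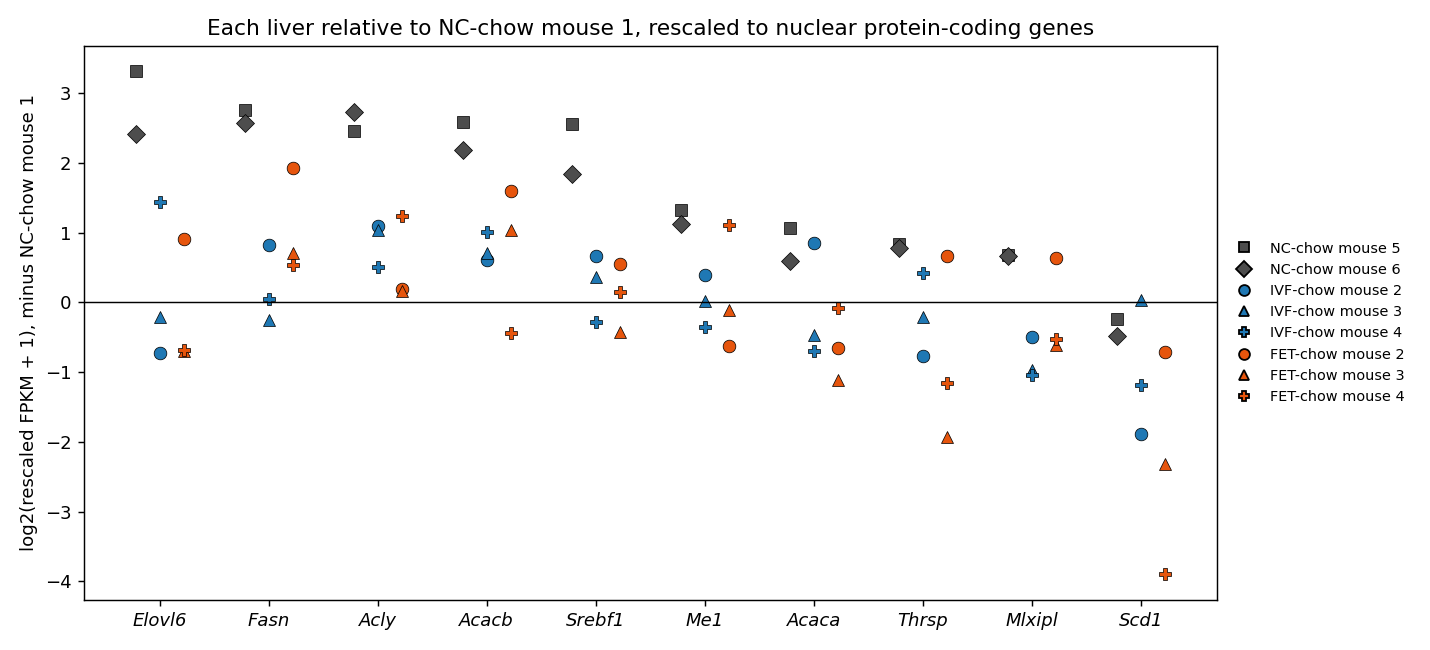
Log2(FPKM + 1) of each liver minus that of NC-chow mouse 1 (y axis), after rescaling each library to the same nuclear protein-coding sum, for the 10 genes (x axis), with 1 point per mouse. NC-chow mice 5 and 6 lie well above 0 for Elovl6, Fasn, Acly, Acacb and Srebf1 and below it for Scd1, and the other 6 mice lie on both sides of 0 for 9 of the 10 genes, Acly being the exception.

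Summed over the 10 genes, FPKM amounted to 0.992%, 1.13% and 0.985% of nuclear protein-coding FPKM in NC-chow mice 1, 5 and 6, to 0.357%, 0.969% and 0.580% in the IVF-chow mice and to 0.816%, 0.244% and 0.175% in the FET-chow mice. By this sum the NC-chow mice were alike and every other liver was lower. Scd1 and Thrsp made up 64.9% to 95.2% of it, so the sum mostly follows these mRNAs. The 8 other genes gave another order, 0.0669%, 0.220% and 0.181% in the NC-chow mice, 0.0644%, 0.0461% and 0.0506% in the IVF-chow mice and 0.116%, 0.0506% and 0.0615% in the FET-chow mice. Without Scd1 and Thrsp, NC-chow mouse 1 was below FET-chow mouse 2 and next to IVF-chow mouse 2.

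**Figure D4:**
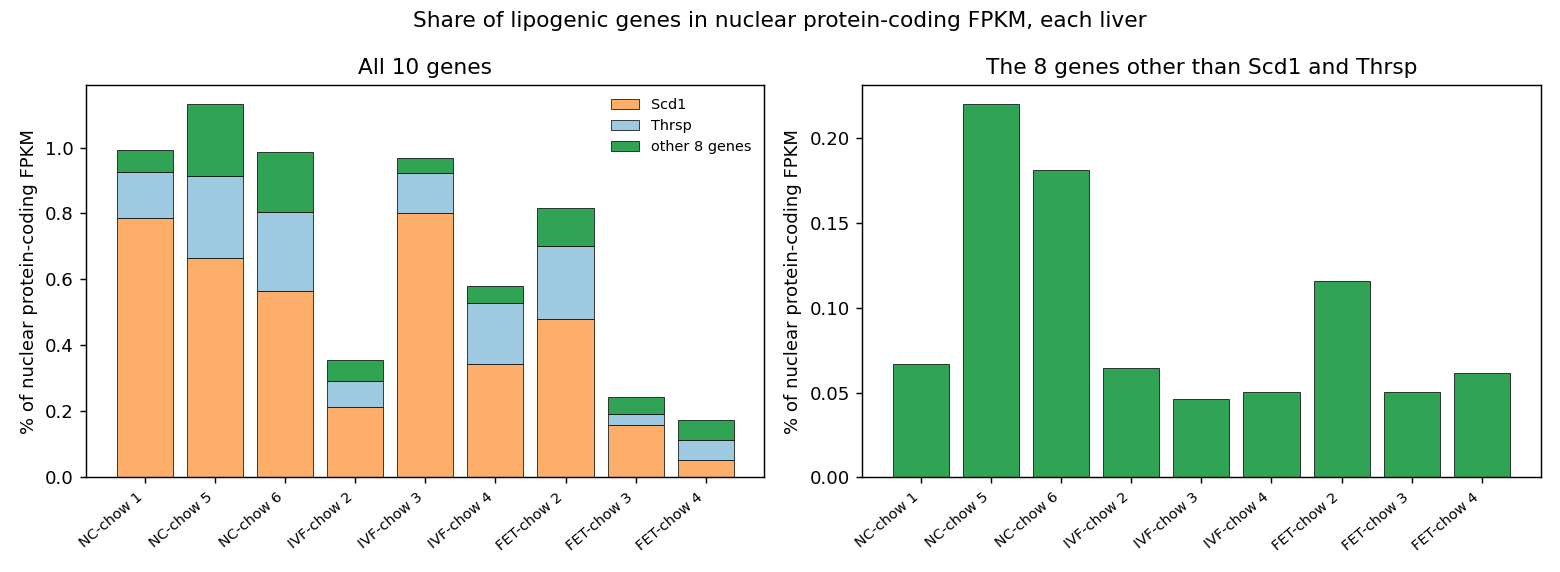
Share of nuclear protein-coding FPKM (y axis, %) held by Scd1, Thrsp and the 8 other genes in each liver (x axis), as stacked bars on the left and for the 8 other genes alone on the right. The 3 NC-chow bars are of like height on the left, between 0.985% and 1.13%, whereas on the right NC-chow mouse 1, at 0.0669%, is far below mice 5 and 6.

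Ratios within a library were taken as log2 of (FPKM + 1) over (FPKM + 1), which pulls the ratio of low genes such as the carboxylases towards 0. The log2 ratio of Acacb to Acaca on this scale was -0.86, 0.58 and 0.67 in the NC-chow mice, -0.74, 0.21 and 0.99 in the IVF-chow mice and 1.17, 1.27 and -0.67 in the FET-chow mice, and each group thus held 1 liver with more Acaca than Acacb. The group difference was 0.46 for FET-chow against NC-chow (p = 0.5), 0.02 for IVF-chow against NC-chow (p = 1) and 0.44 for FET-chow against IVF-chow (p = 0.5) by exact permutation over mice (two-sided, with 0.1 as the lowest p that 3 mice against 3 allow). With a pseudocount of 0.1 in place of 1, the ratio was -1.88 in NC-chow mouse 1, 2.59 in FET-chow mouse 3 and -2.78 in FET-chow mouse 4, and the differences were 0.75, 0.22 and 0.53 in the same order. The log2 ratio of Mlxipl to Srebf1 was 3.47, 1.65 and 2.36 in the NC-chow mice, 2.11, 2.18 and 2.92 in the IVF-chow mice and 3.55, 3.38 and 2.55 in the FET-chow mice. In the same exact test, FET-chow was 0.66 above NC-chow (p = 0.3) and 0.75 above IVF-chow (p = 0.2), and the difference of IVF-chow from NC-chow was -0.09 (p = 0.8). With a pseudocount of 0.1 these differences were 0.88, 0.86 and 0.021. Adjusted over the 6 tests, p was 0.75 or more.

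Across the 9 livers the levels of most of the 10 genes were correlated. Pearson's r of log2(FPKM + 1) over the 45 pairs of genes ran from 0.46 to 0.95 with a median of 0.81 as deposited, and from -0.19 to 0.88 with a median of 0.59 after rescaling. Over all pairs of the 6755 genes tested the median r was 0.46 as deposited and 0.013 after rescaling. The rescaled r of Scd1 was -0.19 with Me1, 0.13 with Acly, 0.18 with Acaca and 0.19 with Fasn. The points share the library, its depth and its share of coding RNA, and NC-chow mice 5 and 6 are far from the rest. Elovl6 and Srebf1 followed the mean of the 10 standardised genes most closely (r of 0.98 and 0.97 over 9 libraries), and Scd1 least (0.75). That mean contains each of the 10 genes itself, which raises their r, whereas genes outside the lists are not part of it. The protein-coding genes outside all lists with the most similar pattern were Uroc1 (r of 0.99), which encodes urocanase of histidine breakdown, Tk1 (0.97), a thymidine kinase, Scnn1a (0.97), a subunit of the epithelial sodium channel, Spata2l (0.97) and Fnbp4 (0.97). Uroc1 had 24.5, 105.6 and 127.2 FPKM in the NC-chow mice, and 10.7, 25.2 and 45.5 FPKM in the IVF-chow mice. In the FET-chow mice it had 30.9, 18.1 and 12.01 FPKM. Its split inside NC-chow follows from its choice by likeness to the 10 genes.

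Genes around the pathway were read from the same limma fit, in which 74.3% of all genes were lower in FET-chow than in NC-chow and 10.1% were lower at an unadjusted p under 0.05. After rescaling, 53.5% of all genes were lower in FET-chow (median -0.06), and against NC-chow mouse 1 alone 58.1% were (median -0.15). Each count below is to be read against the share for its own setting. Of the 13 tested upstream regulators (of 20 listed), 0 passed the adjusted threshold in any of the 3 comparisons. In FET-chow 12 were lower than in NC-chow with a median of -0.68, 0 of them at an unadjusted p under 0.05. Without the filter 19 of the 20 listed were lower, beside 16890 of all 27411 genes then tested, with medians of -0.42 and -0.05. That larger set takes in genes with a mean under 1 FPKM. After rescaling 8 of the 13 were lower (53.5% of all genes), with a median of -0.19. Against NC-chow mouse 1 alone 11 of the 13 were lower (58.1% of all genes), with a median of -0.29. The largest values were those of Nr1h2 (-1.36, SE 0.71), the oxysterol receptor LXR-beta, Trib1 (-1.23, SE 0.65), a pseudokinase, and Insig2 (-1.17, SE 0.71), which holds SREBP in the endoplasmic reticulum. Of the 9 tested genes for carbon and NADPH supply (of 10), 0 passed in any comparison, and all 9 were lower in FET-chow against NC-chow with a median of -0.99, 4 of them at an unadjusted p under 0.05. After rescaling 7 of the 9 were lower (53.5% of all genes), with a median of -0.38. With mouse 1 as the only NC-chow mouse 7 of the 9 were lower (58.1% of all genes), with a median of -0.42. They included the liver pyruvate kinase Pklr (-2.22, SE 1.03), a ChREBP target, the glucose transporter Slc2a2 (-1.91, SE 0.78) and the acetyl-CoA synthetase Acss2 (-1.60, SE 0.61). Pklr had 7.67, 75.6 and 84.9 FPKM in the NC-chow mice, 6.14, 19.1 and 80.5 FPKM in the IVF-chow mice and 17.1, 8.45 and 2.29 FPKM in the FET-chow mice, and so repeated the low value of NC-chow mouse 1.

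Of 15 tested genes for further elongation, desaturation and activation (of 16), 0 passed in any comparison, and 13 were lower in FET-chow against NC-chow with a median of -1.45, 3 of them at an unadjusted p under 0.05. After rescaling 13 of the 15 were lower (53.5% of all genes), with a median of -0.82. Against NC-chow mouse 1 alone the median was -0.15 with 8 of 15 lower, at the level of all genes under that setting (-0.15, 58.1% lower). Elovl5, an elongase of polyunsaturated fatty acids, had the largest difference of them (-2.88, SE 0.92, adjusted p = 0.167 in limma). Its level was 22.3, 39.9 and 84.6 FPKM in the NC-chow mice and 6.53, 9.22 and 1.65 FPKM in the FET-chow mice. Every FET-chow mouse was thus below every NC-chow mouse, as for 5 of these 15 genes and 17.1% of all genes. Hacd3 (-1.77, SE 0.78), a dehydratase of the elongation cycle, and Fads2 (-1.70, SE 0.85), a desaturase, followed. Of 13 tested genes for triglyceride synthesis and lipid droplets (of 18), 0 passed in any comparison, and 12 were lower in FET-chow with a median of -0.99, 2 of them at an unadjusted p under 0.05. After rescaling 12 of the 13 were lower (53.5% of all genes), with a median of -0.52. Against NC-chow mouse 1 alone 11 of the 13 were lower (58.1% of all genes), with a median of -0.56. Among them were Cideb (-2.29, SE 0.95) and Plin5 (-1.76, SE 0.59), proteins of the lipid droplet, and Dgat2 (-1.40, SE 1.03), which makes triglyceride. Plin5 is listed at 0 throughout FET-chow.

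The fasting response, which runs opposite to lipogenesis in a normal liver, had lower fitted values in FET-chow too. Of 7 tested genes (of 10), all 7 were below NC-chow by the fitted value with a median of -1.62. Of these, 3 were lower at an unadjusted p under 0.05, and 0 passed in any comparison. Without the filter 9 of the 10 listed were lower, beside 16890 of all 27411 genes then tested, with medians of -0.97 and -0.05. After rescaling 6 of the 7 were lower (53.5% of all genes), with a median of -0.9975. Against NC-chow mouse 1 alone 6 of the 7 were lower (58.1% of all genes), with a median of -0.85. Cyp4a14, a fatty acid hydroxylase, came nearest (-2.39, SE 0.59, adjusted p = 0.0511 in limma). It passed the filter only through its NC-chow values (3.89, 1.82 and 9.37 FPKM), and had 0.585 to 0.713 FPKM in the IVF-chow mice. It is listed at 0 in the 3 FET-chow mice, as is Igfbp1 (-2.14, SE 0.64). Pck1, the gluconeogenic enzyme, had 1.45, 78.3 and 51.7 FPKM in the FET-chow mice and 95.2, 174.3 and 180.3 FPKM in the NC-chow mice. The libraries in which these genes are listed at 0 are the shallowest, and the part of depth in this was not tested.

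Markers of cell types were checked, since adipose tissue expresses the same lipogenic enzymes. All 10 hepatocyte markers were above 0 in every liver, and their summed level was 9958 to 19400 FPKM in NC-chow, 3276 to 30000 FPKM in IVF-chow and 4126 to 14460 FPKM in FET-chow. Their median difference in FET-chow against NC-chow was -1.42 with 9 of 10 lower as deposited (lipogenic genes -1.65), -0.79 after rescaling (-1.18) and -0.66 against NC-chow mouse 1 alone (-0.16). In IVF-chow against NC-chow it was -0.54 as deposited (-1.13) and -0.20 after rescaling (-0.83). In FET-chow against NC-chow 0 of the hepatocyte markers passed the limma test (Alb -1.37, SE 0.83; Apoa1 0.07, SE 0.87). The 8 adipocyte markers summed to 3.31 to 5.71, 0.388 to 6.45 and 1.82 to 3.31 FPKM in the 3 groups, with Fabp4 and Lipe the highest. The defining marker Adipoq was listed at 0 in 8 of the 9 livers (0.785 FPKM in FET-chow mouse 3). Kupffer cell and macrophage markers (7 genes, led by Clec4f and Cd5l) summed to 13.1 to 31.1, 4.997 to 35.8 and 11.6 to 78.3 FPKM. The sums were 6.92 to 12.2, 2.62 to 8.02 and 5.59 to 6.91 FPKM for 6 endothelial markers (Clec4g and Cdh5), and 8.15 to 9.74, 3.78 to 19.2 and 5.63 to 13.3 FPKM for 6 stellate cell and fibroblast markers (Dcn and Col3a1). For 5 cholangiocyte markers (Spp1 and Krt19) they were 8.01 to 17.0, 1.55 to 10.3 and 1.66 to 9.71 FPKM, and for 6 blood markers (Hba-a1 and Hbb-bs) 233.0 to 484.0, 57.2 to 278.1 and 124.1 to 413.5 FPKM. As deposited, these sums overlapped between NC-chow and FET-chow except for adipocyte and endothelial markers. There the highest FET-chow sums (3.308 and 6.906 FPKM) lay just under the lowest NC-chow sums. Median differences of tested markers in FET-chow against NC-chow follow, as deposited and then rescaled. They were -0.15 and 0.14 for adipocyte and -0.25 and 0.28 for endothelial markers (1 gene each). They were -0.19 and 0.19 for Kupffer cell (5 genes) and -0.32 and 0.31 for blood markers (2 genes). For stellate cell markers they were 0.05 and 0.55, and for cholangiocyte markers -0.75 and -0.49 (2 genes each). The part of these cell types in the lipogenic differences was not tested.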

How the data were processed

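Total liver RNA of 9 mice, 3 per group by the sample labels, was sequenced on an Illumina instrument. The authors deposited FPKM per Ensembl gene. The submitters' processing notes name FastQC 0.11.5, STAR 2.5.3a, StringTie 1.3.1c and DESeq2 1.16.1, and the genome build is not given in the sources used here. Symbols and positions come from GENCODE vM21 (GRCm38), which matched 55154 of 55335 genes, and promoter windows from RefSeq (GRCm38.p6). As the table holds no counts, no count test was run, and each depth is an estimate, read from the spacing of low FPKM values (up to 8 steps, tolerance 2%), and covers counting error only.

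The 6755 genes averaging 1 FPKM or more entered limma 3.58.1 (R 4.3.3) as log2(FPKM + 1), all 9 mice in 1 model with a variance trend, two-sided, Benjamini-Hochberg adjusted, at a threshold of 0.05. Ratios were compared by exact permutation. Nothing states whether littermates were sampled, so p-values measure the spread between these mice. The fit was tested on simulated data for FET-chow against NC-chow, with 200 changed genes in each of 5 draws. It recovered 2.8% of the changed genes at a log2 change of 2, 64.8% at 3 and 99.1% at 6. Most genes with a change of 2 were thus missed, so failing the threshold does not show that a gene was unchanged.

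Named were the 10 genes, of each pathway list the genes past the threshold and the 3 largest in FET-chow against NC-chow, of each marker list the 2 most abundant, and the 5 genes most alike. The members and lists were chosen with earlier results of these data known. Alternatives tried were no filter, a pseudocount of 0.1, median-ratio scaling, rescaling to nuclear protein-coding genes, a fit of only the compared groups, NC-chow mouse 1 alone, a replicate block and leaving out each mouse.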

Additional observations from a re-analysis of the deposited data

How the results depend on the processing

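None of the 10 genes passed the adjusted threshold under any setting (lowest adjusted p in limma 0.101 for FET-chow against NC-chow, 0.402 for IVF-chow against NC-chow and 0.319 for FET-chow against IVF-chow). Depth limits the low genes: Acaca rests on an estimated 7 to 16 fragments in FET-chow mice. For FET-chow against NC-chow, the genes past the threshold over the whole table numbered 0 without a filter, 26 with median-ratio scaling, 0 with only the compared groups, 6 with NC-chow mouse 1 alone and 0 with that mouse alone after rescaling, and 1 to 83 when 1 mouse was left out (83 without NC-chow mouse 1, 57 without FET-chow mouse 2, 1 without FET-chow mouse 3). For IVF-chow against NC-chow they numbered 0 with a pseudocount of 0.1, without a filter, with either scaling and with only the compared groups, 2 and 0 with mouse 1 alone as deposited and rescaled, and 0 to 24 when 1 mouse was left out (24 without NC-chow mouse 1, 1 without IVF-chow mouse 2, 0 without IVF-chow mouse 3 or 4). For FET-chow against IVF-chow they numbered 0 without a filter and with only the compared groups, and 0 to 10 when 1 mouse was left out (10 without IVF-chow mouse 2, 0 without IVF-chow mouse 4, 2 and 3 without FET-chow mice 3 and 4). The cause was not tested.

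With NC-chow mouse 1 as the only NC-chow mouse, the median over the 10 genes was -0.16 (rescaled, a setting chosen after seeing the data, -0.030) for FET-chow and 0.195 (0.094) for IVF-chow. Single genes turned direction as well. In FET-chow these were Acly 0.34 (0.53), Acacb 0.76 (0.73) and Fasn 0.88 (1.06), and after rescaling Srebf1 (0.10) and Me1 (0.12). In IVF-chow they were Srebf1 0.32 (0.25), Acly 0.94 (0.89), Me1 0.10 (0.020), Acacb 0.87 (0.77), Fasn 0.29 (0.21) and Elovl6 0.40 (0.17). In FET-chow against IVF-chow, Me1 was 0.10 after rescaling. When 1 mouse was left out of that comparison, the median ranged from -0.60 to 0.053, Mlxipl from -0.095 to 0.96, Me1 from -0.49 to 0.12, Acacb from -0.50 to 0.46 and Elovl6 from -1.56 to 0.46.

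For the log2 ratio of Acacb to Acaca, leaving out 1 mouse gave -0.037 to 1.09 for FET-chow against NC-chow, -0.47 to 0.47 for IVF-chow against NC-chow and -0.0088 to 1.07 for FET-chow against IVF-chow. For Mlxipl to Srebf1 in IVF-chow against NC-chow it gave -0.51 to 0.40, and a pseudocount of 0.1 gave 0.021. Rescaling to nuclear protein-coding genes moved the median of all genes from -0.46 to -0.06, from -0.25 to -0.07 and from -0.20 to 0.02 in the 3 comparisons.

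IVF-chow and FET-chow share mouse numbers, but same-numbered mice did not deviate together (correlations of -0.13, 0.02 and -0.26). With 3 mice per group this cannot exclude a pairing, and the main fit treated the mice as unpaired. With a replicate block 2 genes were past the threshold in FET-chow against IVF-chow in place of 6, and none of the 10.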
